A study of Mus musculus with 2 samples.

Results

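Lyve1-high macrophages of the inflamed ear skin were examined in single-cell RNA-seq data, as 69 cell barcodes among the 8953 of the cDNA library. Members were chosen by their measured values: at most 20% mitochondrial reads, at least 200 genes, and, in counts per 1000000 reads of the barcode (CPM), at least 300 for Csf1r, Cd68, Ms4a6c and Ms4a7 together, at least 200 for Lyve1, under 3000 for Col1a1, under 5000 for S100a8 plus S100a9, and under 50 for each of Pdcd1lg2, Gpnmb and the sum of Prox1 and Cdh5. Without the limits on Lyve1, on Pdcd1lg2 and Gpnmb, which mark monocyte-derived macrophages, and on the endothelial pair, 1648 barcodes lay in the macrophage gate. Since Lyve1 and the gate genes chose these cells, their levels are given as a description and carry no test.

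The study followed IgE-mediated chronic allergic inflammation (IgE-CAI) in male BALB/c mice that were wild-type (WT) or Ccr2-/- (allele Ccr2tm1Mae), a genotype in which monocytes that need CCR2 to leave the bone marrow are scarce in tissue. All mice received 300 µg of anti-TNP IgE intravenously and 10 µg of TNP-OVA in the skin of 1 ear on the next day, and cells were taken from that ear 3 or 5 days after challenge. Cells of the 4 groups were stained with 1 hashtag antibody each and mixed, and 10000 labelled cells were loaded on a BD Rhapsody microwell cartridge. Each group was therefore 1 pool with no replicate, the number of mice in a pool is not given in the sources used here, and no skin without IgE-CAI was analysed here. Of the 69 members, 19 came from the WT day 3 pool, 16 from WT day 5, 21 from Ccr2-/- day 3 and 9 from Ccr2-/- day 5, and 4 carried no clear hashtag. Values below follow this order of the 4 pools wherever 4 values stand together.

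Lyve1 encodes a hyaluronan receptor that is shared by lymphatic endothelium and by a population of tissue-resident macrophages, often found along blood vessels. Resident macrophages of the skin are largely established before inflammation begins and can renew themselves by division, whereas monocyte-derived macrophages enter inflamed skin from the blood. Resident cells of this kind are known for scavenger and lectin receptors, uptake of dying cells and debris, and low antigen presentation.

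Depth differed between the genotypes. Members held a median of 64909 reads (5642 to 285114) and 4320 genes, and the median per pool was 38173, 42944.5, 89654 and 108591 reads. Summed reads per pool, on which the levels below rest, ranged from 850340 in WT day 5 to 2285200 in Ccr2-/- day 3. All intervals below are exact 95% intervals and leave out variation between mice and pools. Intervals on reads treat each read as independent. Reads without molecular identifiers are not independent molecules, so these intervals are likely too narrow even for counting error.

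Lyve1 itself (chromosome 7, 110850607 to 110862953, GRCm38.p6) ranged from 202 CPM through a median of 707 CPM to 5580 CPM over the members. Just inside the limit lay barcodes at 202, 215 and 220 CPM, and just outside lay 193, 190 and 187 CPM. Of the 1202 barcodes that met every other limit and failed on Lyve1, 1124 held no Lyve1 read and 78 held Lyve1 reads below the limit, more than the 69 members above it, so the limit falls within the range of Lyve1-positive cells. The summed C1qa, C1qb and C1qc level of members, which the gate did not use, had a median of 6439 CPM (177 to 16425), and Mrc1, the mannose receptor, reached 3305, 3048, 4527 and 4013 CPM with reads in all 65 assigned members.

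The label was compared with the other proposed markers Cd209b, Folr2, C4b and Ltc4s, which had themselves been picked on these data. Reads of all 4 were found in 7 members, of 3 in 23, of 2 in 23, of 1 in 14 and of none in 2. For comparison, 418 C1q-high Lyve1-low macrophages were taken by the same gate with Lyve1 under 200 CPM and at least 1000 CPM of the 3 C1q genes together, and among them the corresponding numbers were 14, 54, 92, 174 and 84. These numbers were taken without thinning, and the 418 cells held a median of 48256 reads against 64909 in members. The part of depth in this contrast was not tested. Folr2, a folate receptor of resident macrophages (chromosome 7, 101839988 to 101857190), was the most widespread of the 4 in members. It had reads in 17 of 19, 16 of 16, 21 of 21 and 9 of 9 members, with summed levels of 744, 1041, 628 and 953 CPM against 510, 508, 553 and 469 CPM in the comparison cells. After each cell was thinned to 10000 reads, which left out 3 shallower members of WT day 3, Folr2 was seen in 95.2% of 62 members (96.9% before thinning, median depth 64725 reads), in 72.4% of the comparison cells (74.2%, 46853.5 reads) and in 0.385% of fibroblast-gated cells (5.57%, 100176 reads), which should lack it.

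The other 3 markers were carried by fewer cells. Cd209b, a C-type lectin of macrophages (chromosome 8, 3917655 to 3926841), was at 145, 347, 179 and 350 CPM against 134, 128, 116 and 203 CPM, with reads in only 4 of 19, 4 of 16, 7 of 21 and 4 of 9 members. Most of its WT reads lay in 1 cell per pool (91.0% at day 3 and 84.7% at day 5), and CD209 genes are near copies among which the alignment could have split reads. C4b, a complement component (chromosome 17, 34728139 to 34743902), was at 240, 569, 105 and 481 CPM against 133, 101, 183 and 208 CPM, so that the Ccr2-/- day 3 pool went the other way from the remaining 3; fibroblast-gated cells also carried C4b, in 42.4% of cells after thinning. Ltc4s, which makes the parent cysteinyl leukotriene (chromosome 11, 50236461 to 50238532), was at 151, 113, 50.3 and 150 CPM against 42.4, 22.0, 4.89 and 49.1 CPM, 3.05 to 10.3 times the comparison cells of the same pool.

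Reads of other skin cells were low but not absent in members. Summed over 5 markers each, fibroblast genes lay at 656 to 958 CPM in the 4 pools (871 to 1100 CPM in the comparison cells), neutrophil genes at 49.0 to 104 CPM with Mmp8 and Ly6g at 0 in every pool, T and NK cell genes at 0 to 3.53 CPM, and keratinocyte genes at 8.23 to 22.9 CPM. Dendritic cell genes lay at 131 to 369 CPM with Ccr7 at 0 in every pool, blood endothelial genes at 4.23 to 49.9 CPM, and pericyte or smooth muscle genes at 0.846 to 80.6 CPM. Lymphatic endothelial genes, the other main source of Lyve1, were at 18.1, 14.1, 263 and 192 CPM with Flt4 at 0 in every pool. A single Ccr2-/- day 3 member held 304 Ccl21a reads, 96.2% of all Ccl21a reads in members, together with 17 Mmrn1 and 55 Pdpn reads among 166612 in total. A WT day 5 member held 135 Mcpt8 and 27 Cd200r3 reads, both basophil genes, and accounted for 93.2% of the mast cell and basophil reads of its pool, which summed to 207 CPM against 10.5 to 19.1 CPM in the other pools. Barcodes with hashtags of several pools were left out by the hashtag ratio, no caller of doublets by expression was run, and the counts of calls were repeated without the Ccl21a-rich member.

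The first question was whether the genotype or the day altered how frequent these macrophages were. Lyve1-high macrophages made up 1.18% of assigned cells at WT day 3 (19 of 1613, exact Clopper-Pearson interval 0.711 to 1.83), 1.47% at WT day 5 (16 of 1091, 0.841 to 2.37), 0.923% at Ccr2-/- day 3 (21 of 2274, 0.573 to 1.41) and 0.357% at Ccr2-/- day 5 (9 of 2522, 0.163 to 0.676). The intervals overlapped except that Ccr2-/- day 5 lay below both WT pools. That separation was lost in barcodes of 10000 or more reads, where Ccr2-/- day 5 was at 0.515% (0.236 to 0.976) against 1.19% (0.685 to 1.93) and 1.66% (0.951 to 2.68) in WT, and with Lyve1 at 500 CPM or more, where it was at 0.317% (0.137 to 0.624) against 0.992% (0.568 to 1.61) and 0.825% (0.378 to 1.56). The mean share was 1.32% over the WT pools and 0.640% over the Ccr2-/- pools, so the genotypes differed by -0.682 percentage points (exact two-sided permutation p = 0.33, and no smaller value was possible with 4 pools). Of cells within the macrophage gate, by contrast, members were 3.24% (19 of 587, 1.96 to 5.01), 3.02% (16 of 529, 1.74 to 4.87), 9.33% (21 of 225, 5.87 to 13.9) and 4.07% (9 of 221, 1.88 to 7.59), and the genotype difference was +3.57 percentage points (exact permutation p = 0.33). The direction between genotypes thus turned with the denominator, and at Ccr2-/- day 3 the interval of the share of the gate lay above those of both WT pools. In barcodes of 100000 or fewer reads that share was 6.63% (3.47 to 11.3), overlapping both WT intervals, and the genotype difference was +1.17 percentage points (exact permutation p = 1). The C1q-high Lyve1-low macrophages were at 6.14%, 19.1%, 1.85% and 1.55% of assigned cells and at 16.9%, 39.3%, 18.7% and 17.6% of the gate. Shares describe the cells loaded and not cells per ear.

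**Figure D1:**
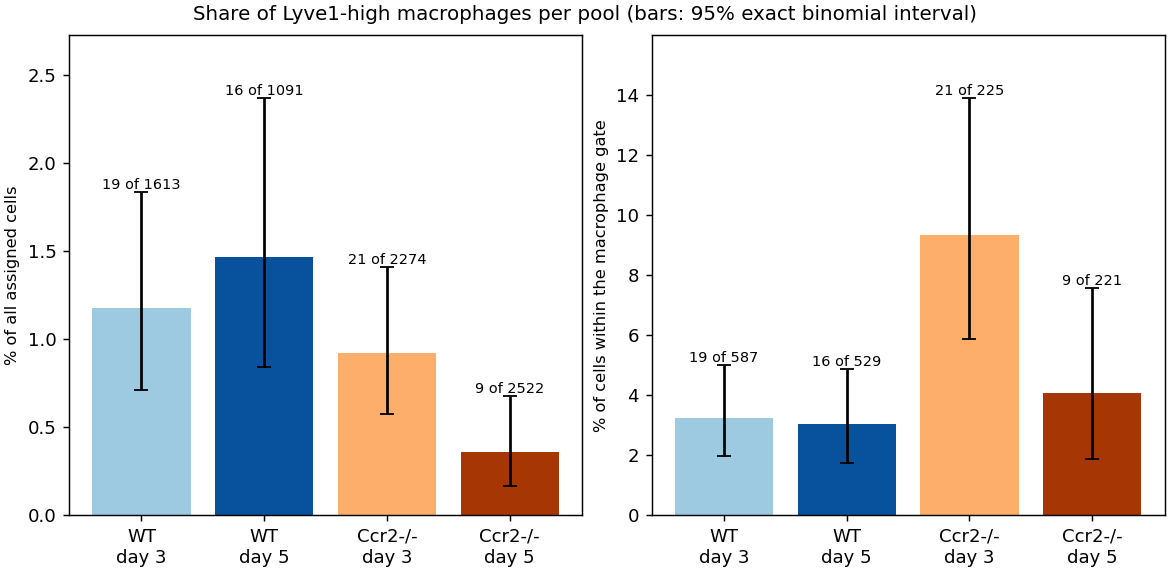
Share of Lyve1-high macrophages in each pool, in % of all assigned cells (left) and in % of cells within the macrophage gate (right), with exact 95% binomial intervals and the counts above the bars. Ccr2-/- day 5 is lowest on the left at 0.357%, and Ccr2-/- day 3 is highest on the right at 9.33%.

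The second question was what set these cells apart from C1q-high Lyve1-low macrophages of the same pool. Reads were summed per pool and subset and tested with edgeR's quasi-likelihood test with the pool as a block and Benjamini-Hochberg adjustment over 10906 genes; genes of the gate and the C1q genes were left out of the counts. Outside the rule, 3 genes rose in Lyve1-high cells (0.0275% of genes tested) and 2 fell (0.0183%). The 3 were F13a1, Sulf2 and Hal, and the 2 were Fabp5 and Cyp26b1.

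F13a1, the catalytic subunit of the coagulation factor that cross-links fibrin (chromosome 13, 36867178 to 37050244), was at 1837, 2144, 1736 and 2280 CPM in Lyve1-high cells against 878, 749, 568 and 519 CPM in the comparison cells. Every Lyve1-high sum lay above every comparison sum, 2.09 to 4.39 times that of the same pool (log2 fold change 1.62, SE 0.19, edgeR adjusted p = 0.0436). Reads of F13a1 were found in 64 of 65 assigned members. Sulf2, an extracellular sulfatase that trims heparan sulfate (chromosome 2, 166073899 to 166155683), was at 311, 262, 241 and 350 CPM against 115, 110, 77.8 and 134 CPM, again with no overlap (log2 fold change 1.47, SE 0.19, edgeR adjusted p = 0.0436). Hal, the enzyme that begins histidine breakdown (chromosome 10, 93488768 to 93516761), was at 643, 897, 520 and 510 CPM against 330, 332, 194 and 180 CPM (log2 fold change 1.37, SE 0.18, edgeR adjusted p = 0.0436).

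The genes that fell act on retinoic acid and on fatty acids. Cyp26b1, which degrades retinoic acid (chromosome 6, 84571414 to 84593908), was at 14.1, 5.88, 74.0 and 44.9 CPM against 80.6, 38.4, 1334 and 657 CPM, at least 5.71 times lower in each pool (log2 fold change -3.48, SE 0.34, edgeR adjusted p = 0.0121). In both subsets its level was higher in the Ccr2-/- pools than in the WT pools, so that pools overlapped between subsets while each pair did not. Fabp5, a fatty acid carrier (chromosome 3, 10012585 to 10016610), was at 96.7, 55.3, 19.3 and 16.9 CPM against 527, 477, 329 and 802 CPM, 5.45 to 47.4 times lower (log2 fold change -3.69, SE 0.46, edgeR adjusted p = 0.0436). All 5 genes kept their direction under all 19 alternatives. Without the member rich in Ccl21a, Cyp26b1 was not called (log2 fold change -4.12, edgeR adjusted p = 0.17, within a range of 1.625e-32 to 0.7717 over the 19 alternatives), and the other 4 genes were. The calls changed with the pools used. With any 1 of the 4 pools left out, the edgeR adjusted p-values were 0.0687 to 0.175 for F13a1, 0.17 to 0.309 for Sulf2 and 0.154 to 0.309 for Hal. Cyp26b1 stayed called without WT day 3 (0.015) or WT day 5 (0.048) and not without Ccr2-/- day 3 (0.148) or Ccr2-/- day 5 (0.126), and Fabp5 stayed called without WT day 3 (0.0373) and had values of 0.126 to 0.234 without any of the others. In all, 3 genes were called without WT day 3, 1 without WT day 5 and 0 without either Ccr2-/- pool (621 genes at an unadjusted p under 0.05 without Ccr2-/- day 3 and 542 without Ccr2-/- day 5). With all pools, 640 genes had an unadjusted p under 0.05, and DESeq2 called 41 higher and 52 lower.

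**Figure D2:**
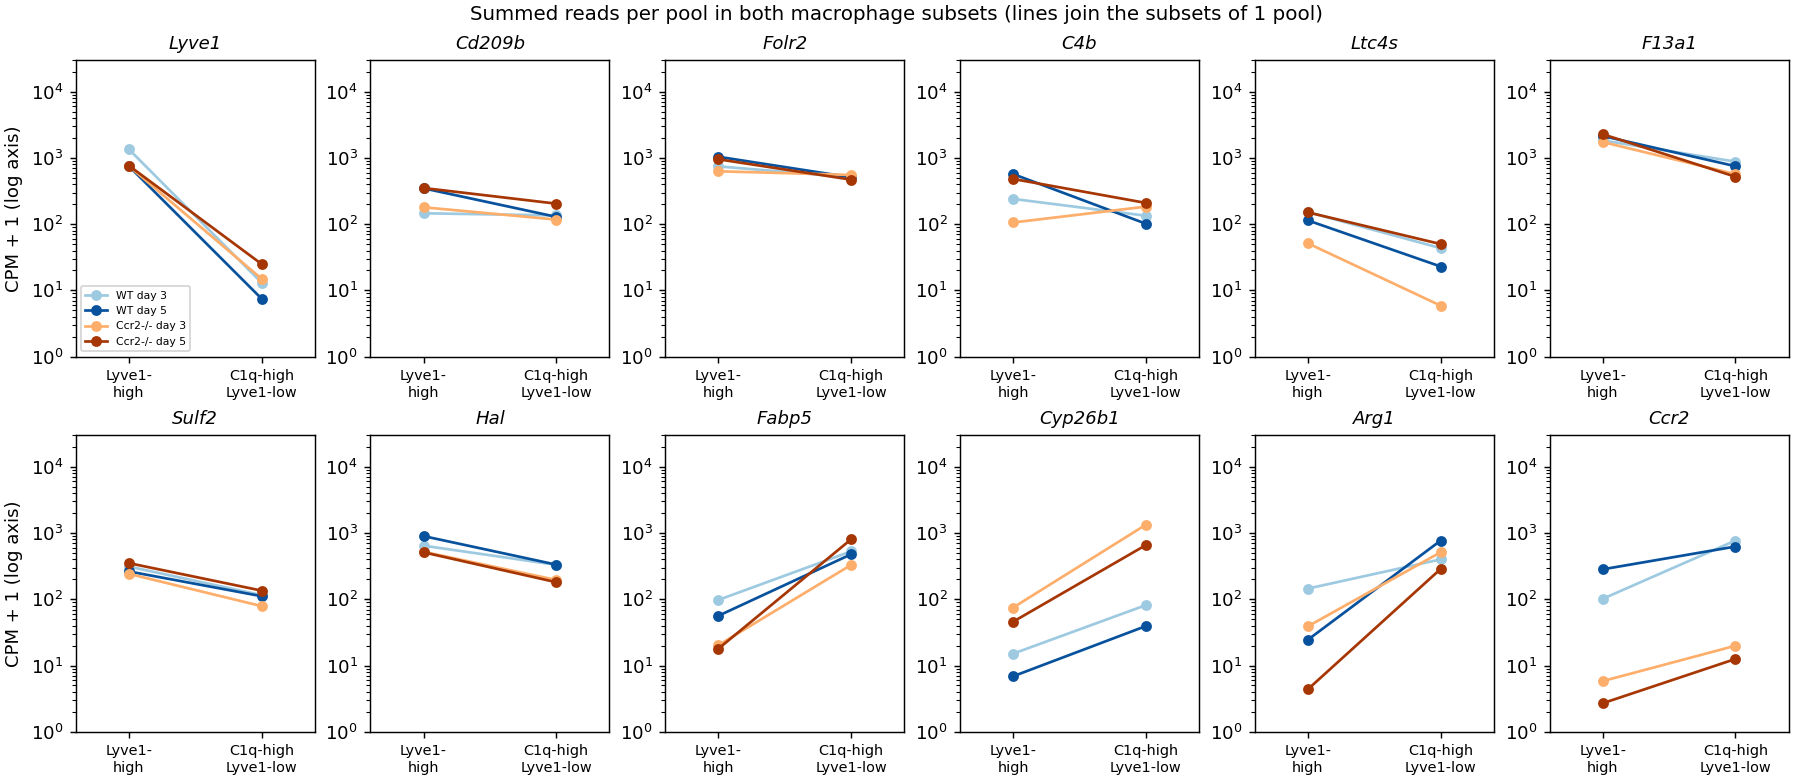
Level of 5 markers, the 5 genes called between the subsets, Arg1 and Ccr2, as CPM plus 1 on a log axis, in Lyve1-high and C1q-high Lyve1-low macrophages, with lines joining both subsets of 1 pool. F13a1, Sulf2 and Hal slope down in all 4 pools and Fabp5, Cyp26b1, Arg1 and Ccr2 slope up, while C4b slopes up only in the Ccr2-/- day 3 pool.

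Whether called or not, a wider set of genes differed at least 2-fold in the same direction in 4 of 4 pools, 27 upward (0.248% of genes tested) and 109 downward (0.999%). Among lectins, Cd209f was at 77.5, 256, 60.0 and 120 CPM against 26.6, 48.6, 20.8 and 5.13 CPM (edgeR adjusted p = 0.369), with reads in only 2, 3, 4 and 4 members. Egfr, the epidermal growth factor receptor, was at 60.4, 62.3, 72.2 and 90.6 CPM against 23.2, 15.8, 28.3 and 25.3 CPM (adjusted p = 0.41). Slamf9, an immune cell surface receptor, was at 72.5, 114, 108 and 104 CPM against 35.3, 11.7, 21.2 and 14.4 CPM (adjusted p = 0.202). Apart from Ccr2, the genes without a call named from this comparison were chosen after their values were seen.

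Lower by the same measure were 3 of 17 alternative activation genes, Arg1, Chil3 and Hilpda, and 2 of 13 chemokine receptor and monocyte genes, Ccr2 and Chil3, with 0 called in either list. Arg1, an arginase of alternatively activated macrophages, was at 144, 23.5, 38.1 and 3.39 CPM against 399, 768, 512 and 286 CPM (edgeR adjusted p = 0.175). Ccr2, the receptor for monocyte chemoattractants, was at 101, 282, 4.81 and 1.69 CPM against 769, 625, 18.9 and 11.5 CPM, 2.21 to 7.63 times lower (adjusted p = 0.175). Outside both lists, Crabp2, a retinoic acid binding protein, was at 7.05, 0, 8.31 and 0 CPM against 96.6, 83.9, 118 and 59.4 CPM (adjusted p = 0.117). Osm, the cytokine oncostatin M, was 2.20 to 7.35 times lower (adjusted p = 0.192). Each of these was lower in members of every pool, though none passed the test. Ccr2 is the targeted gene in the Ccr2-/- pools, where its level was low in both subsets and its folds rest on few reads in members.

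Few genes of the chosen lists were called. Of 21 resident macrophage genes tested, 1 rose (F13a1) and 0 fell, with a median log2 difference of 0.05, against -0.12 over all genes tested. Other members of that list lay on either side, with Mrc1 at 3468, 2895, 4936 and 3870 CPM in the comparison cells, Cd163, a scavenger receptor for hemoglobin, at 1456, 1295, 1650 and 671 CPM against 1105, 2000, 1278 and 1909 CPM, and Igf1, a growth factor, at 546, 603, 537 and 632 CPM against 489, 745, 603 and 540 CPM. Of 16 lipid handling genes, 1 fell (Fabp5), with a median of 0.02. No member of the other lists passed the test. Their medians were 0.89 for the 4 markers, 0.52 for 7 CD209 lectins, 0.32 for 16 leukotriene and prostaglandin genes, 0.24 for 14 complement genes, 0.17 for 16 scavenger receptors and -0.05 for 14 efferocytosis genes. On the low side were 13 chemokine receptor and monocyte genes at -1.40, 13 MHC class II presentation genes at -1.03, 16 inflammatory cytokine genes at -0.84, 20 interferon-stimulated genes at -0.54, 18 chemokines at -0.35 and 17 alternative activation genes at -0.30. The remaining medians were 0.33 for 17 cell division genes, 0.02 for heme and iron genes, -0.03 for growth and repair factors, -0.15 for transcription factors and -0.17 for dissociation and stress genes.

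Set against the same comparison cells with no limit on C1q, that is, all barcodes that met every limit but Lyve1, more genes were called. That comparison group held 419, 402, 151 and 171 cells and included cells with monocyte and dendritic reads, such as Ly6c2 at 439, 71.9, 222 and 126 CPM and Flt3 at 21.7 to 58.1 CPM. By the same edgeR test 80 genes rose (0.637% of 12566) and 108 fell (0.859%). All 4 remaining markers rose, which is no independent support because they were picked on these data. Of 21 resident macrophage genes 8 rose and 0 fell: Cbr2, Colec12, F13a1, Fcna, Gas6, Pf4, Selenop and Stab1. As examples chosen after their values were seen, Gas6, a bridge between dying cells and their receptors, was at 739, 639, 847 and 922 CPM against 144, 381, 174 and 244 CPM (log2 fold change 1.91), and Stab1, a scavenger receptor, at 650, 627, 584 and 454 CPM against 110, 237, 204 and 147 CPM (1.85). Colec12, a scavenger lectin, was at 439, 826, 356 and 549 CPM against 154, 234, 117 and 112 CPM (1.88).

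Lipid mediator genes moved in the same comparison: Alox5, the lipoxygenase that starts leukotriene synthesis, rose (129, 163, 189 and 241 CPM against 31.1, 35.8, 76.9 and 66.8 CPM), as did Hpgds, a prostaglandin D synthase (95.7, 173, 94.1 and 216 CPM against 29.2, 47.5, 49.8 and 55.6 CPM), and Ltc4s, whereas the leukotriene receptor Ltb4r1 fell. These were 3 up and 1 down of the 20 genes tested in that list. Among 14 complement genes 3 rose, including C4b and C5ar1, the latter a receptor for a complement fragment, from 53.7, 88.3, 45.1 and 41.7 CPM to 115, 211, 123 and 236 CPM. Tslp, an alarmin cytokine, rose from 20.5, 37.3, 5.64 and 9.64 CPM to 67.5, 226, 28.4 and 91.4 CPM, a gene chosen after its values were seen. Of 15 chemokine receptor and monocyte genes 6 fell: Ccr2, Chil3, Fn1, Ly6c2, Plac8 and Vcan. Ly6c2, a surface protein of classical monocytes, was at 7.05, 1.18, 0.875 and 0 CPM in members. Arg1, Chil3 and Tgm2 of 18 alternative activation genes and Il1r2, Il1rn and Osm of 18 inflammatory genes also fell, with Il1rn, the antagonist of interleukin-1 signalling, at 20.1, 24.7, 29.3 and 2.54 CPM against 101, 93.7, 167 and 192 CPM.

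The third question was whether Lyve1-high macrophages differed between genotypes. The targeted gene came first: Ccr2 (chromosome 9, 124101918 to 124109140) was at 101 and 282 CPM in the WT pools and at 4.81 and 1.69 CPM in the Ccr2-/- pools, so the labels and the reads went the same way (log2 fold change -5.54, SE 0.78, edgeR adjusted p = 0.00935). It had reads in 5 of 19, 4 of 16, 4 of 21 and 1 of 9 members, and 7 of the 11 Ccr2-/- day 3 reads lay in the member with the most class II reads. After thinning, a Ccr2 read was held by 18.8%, 18.8%, 4.76% and 0% of members in the 4 pools (26.3%, 25.0%, 19.0% and 11.1% before), by 45.9%, 47.0%, 8.11% and 9.09% of the comparison cells (50.5%, 56.2%, 14.3% and 25.6% before) and by 1.35% to 1.95% of fibroblast-gated cells (10.8% to 17.1% before), whose median depth was 73826.5 to 124369 reads. In the additive fit of genotype and day, which has 1 residual degree of freedom, 4 of 9061 genes rose in Ccr2-/- cells (0.0441%) and 8 fell (0.0883%). At an unadjusted p under 0.05 there were 645 genes, and DESeq2 called 28 higher and 34 lower.

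The count of these calls was not stable. EdgeR called 0 genes without the member rich in Ccl21a (627 at an unadjusted p under 0.05), 0 without scaling beyond library size (593) and 0 with cells thinned to 10000 reads (243). With 1 pool left out and no day term, 10 were called without WT day 3, 1 without WT day 5, 6 without Ccr2-/- day 3 and 0 without Ccr2-/- day 5. Of the called genes named here, Ccr2 (adjusted p = 0.00905) passed without WT day 3, G530011O06Rik (0.0068) without WT day 5 and Cd74 (0.0222) without Ccr2-/- day 3. In every other such fit these genes had values of 0.053 to 0.919, and their direction held except for Areg without WT day 5. Depth per member was also higher in the Ccr2-/- pools, as given above, and its part in these differences was not tested beyond the thinned fit.

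Of the 4 genes that rose, G530011O06Rik, Top2a and Stmn1 are described here. G530011O06Rik, a gene without an assigned role here, was at 1.01, 15.3, 402 and 254 CPM in members (log2 fold change 5.50, SE 0.79, edgeR adjusted p = 0.00935), with reads in 21 of 21 members at Ccr2-/- day 3. It showed the same split in C1q-high Lyve1-low cells, at 3.03, 7.84, 404 and 181 CPM, and in Pdcd1lg2-positive cells, at 2.53, 1.71, 233 and 197 CPM. This difference between genotypes was therefore not particular to Lyve1-high cells. Tested over all genes, the genotype difference was compared between Lyve1-high and C1q-high Lyve1-low cells by edgeR, and 0 of 10906 genes were called. With 2 residual degrees of freedom and no replicate pool, this fit cannot show that the subsets share their genotype differences. An unadjusted p under 0.05 was found for 439, a share of the genes tested that is below 0.05.

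**Figure D3:**
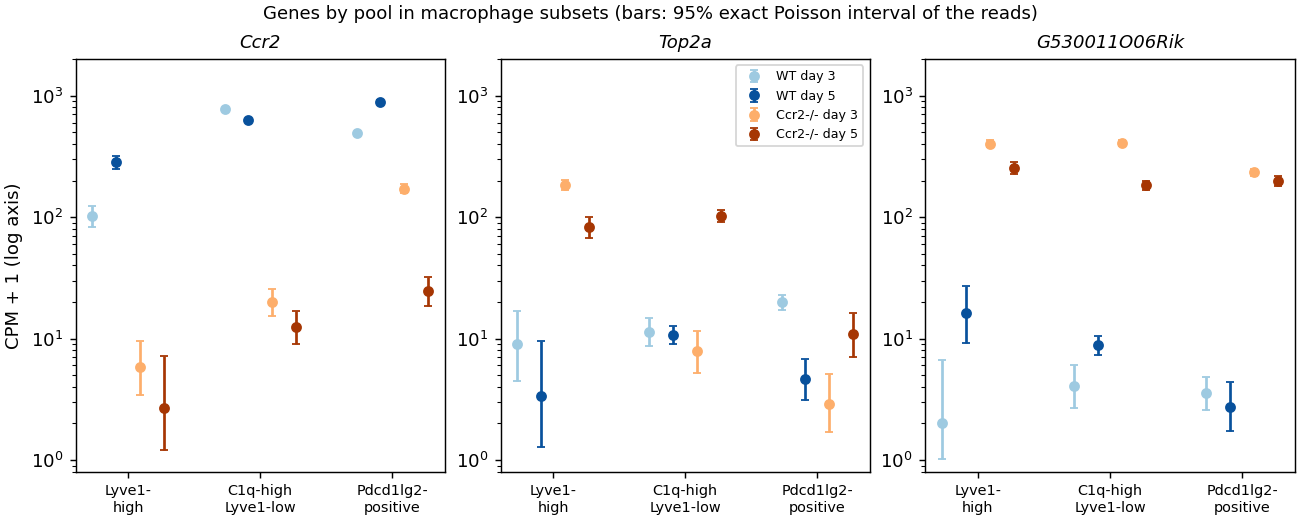
Level of Ccr2, Top2a and G530011O06Rik by pool in Lyve1-high, C1q-high Lyve1-low and Pdcd1lg2-positive macrophages, as CPM plus 1 on a log axis with exact 95% Poisson intervals of the summed reads. Ccr2 is lower in the Ccr2-/- pools, and G530011O06Rik is high in both Ccr2-/- pools of all 3 subsets.

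Among cell division genes, Top2a and Stmn1 rose in Ccr2-/- members. Top2a, a topoisomerase of dividing cells, was at 8.06, 2.35, 182 and 81.2 CPM (log2 fold change 4.67, SE 0.79, edgeR adjusted p = 0.0233), and Stmn1, a regulator of microtubules in dividing cells, at 29.2, 11.8, 208 and 291 CPM (3.62, SE 0.61, adjusted p = 0.0233). Of 18 division genes tested, these 2 rose, and 12 were at least 2-fold higher at both days, against 7.35% of all genes tested; the median log2 difference of the list was 3.60 and that of all genes 0.05. Named by the same measure without a call, Birc5 was at 1.01, 2.35, 86.2 and 89.7 CPM (adjusted p = 0.0538), Cdk1 at 10.1, 0, 198 and 35.5 CPM and Ube2c at 17.1, 0, 188 and 113 CPM (adjusted p = 0.0637 each), followed by Tpx2, Ccnb1, Aurkb and Cenpe.

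These reads sat in few cells. Summed over the 18 genes, members were at 691, 410, 2374 and 1717 CPM, and the 2 highest cells of each pool held 46.4%, 39.3%, 68.0% and 65.7% of the reads. More than 1000 CPM of division genes was found in 2 of 19, 2 of 16, 5 of 21 and 3 of 9 members, and the median member lay at 319, 353, 536 and 667 CPM. The highest cells reached 10374 CPM at Ccr2-/- day 3 and 10874 CPM at Ccr2-/- day 5, above the highest WT members at 2387 and 2118 CPM. For Top2a, thinned cells with a read were 0 of 16, 0 of 16, 4 of 21 and 1 of 9 (exact upper limit 20.6% for a read at this depth in 0 of 16). Fibroblast-gated cells, which can divide as well, held Top2a after thinning in 8.59%, 7.52%, 16.7% and 19.4%, also higher in both Ccr2-/- pools. The share of members with a Top2a read (0%, 0%, 19.0% and 11.1%, unthinned 10.5%, 12.5%, 33.3% and 22.2%) did not stand above that of fibroblasts in the same pool by more than its interval. Since fibroblasts may express Top2a themselves, their share does not measure RNA from other cells. The part of such RNA in the difference was not tested. In C1q-high Lyve1-low cells the summed level was 691, 559, 635 and 1797 CPM, highest in the Ccr2-/- day 5 pool. There, however, 2 of 39 cells held 50.4% of the reads. The median comparison cell lay at 505, 484, 569 and 496 CPM, and 19 of 99, 28 of 208, 9 of 42 and 7 of 39 exceeded 1000 CPM.

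Among the 8 genes that fell with Ccr2 was Cd74, the invariant chain of class II molecules, at 3026, 1590, 758 and 77.9 CPM (log2 fold change -3.17, SE 0.49, edgeR adjusted p = 0.0201). Of 13 class II presentation genes tested this was the 1 called, and 7 (Cd74, Ciita, H2-Aa, H2-Ab1, H2-DMb1, H2-DMb2 and H2-Eb1) were at least 2-fold lower at both days, against 5.86% of all genes; the list's median was -3.17. H2-Ab1 was at 1374, 476, 372 and 7.62 CPM (adjusted p = 0.0637) and H2-Eb1 at 774, 352, 223 and 3.39 CPM (adjusted p = 0.114). The sum of H2-Aa, H2-Ab1, H2-Eb1 and Cd74 was 6777, 3169, 1865 and 101 CPM. At Ccr2-/- day 3, 95.7% of these reads lay in 1 member with 26781 CPM, which also held 41 Cd209a reads and 0 Flt3 reads; the other 20 members together were at 85.8 CPM.

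Cell by cell, class II was uneven in WT as well. More than 1000 CPM of the 4 genes was found in 7 of 19, 5 of 16, 1 of 21 and 0 of 9 members, and the median member lay at 162, 243, 44.3 and 72.9 CPM. In C1q-high Lyve1-low cells the corresponding counts were 65 of 99, 119 of 208, 1 of 42 and 7 of 39, with medians of 9981, 1869, 50.2 and 92.2 CPM. Class II was thus lower in Ccr2-/- than in WT in both subsets, and within WT the median member was below the median comparison cell.

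**Figure D4:**
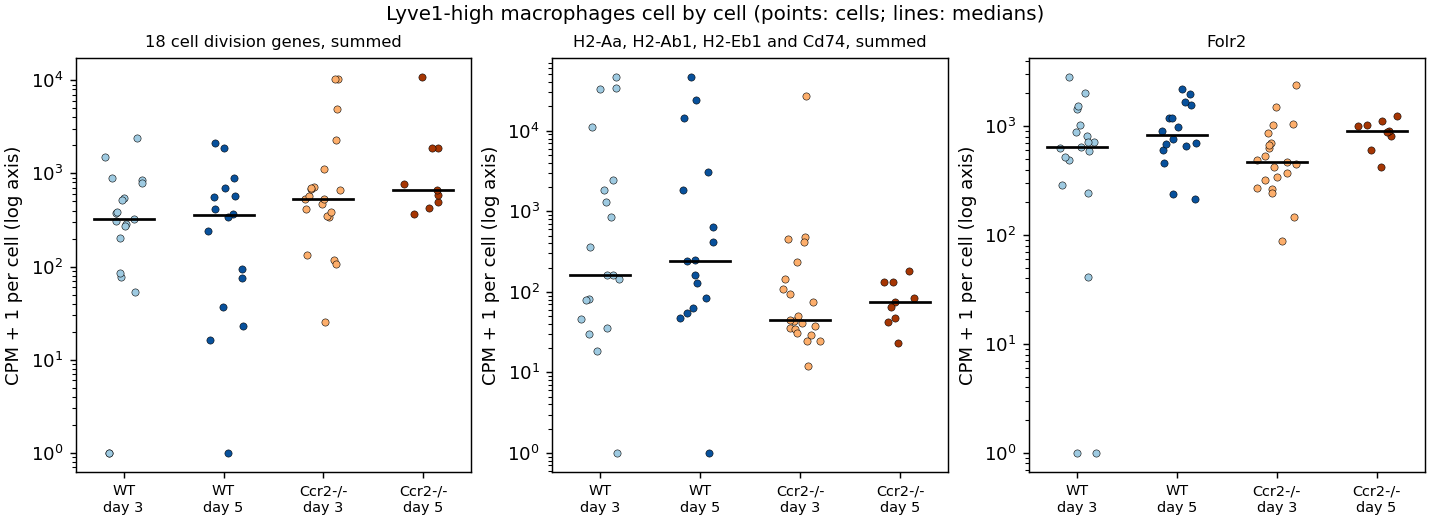
Each assigned Lyve1-high macrophage by pool, as CPM plus 1 on a log axis, for 18 cell division genes together, 4 class II genes together and Folr2, with lines at the medians. Division reads reach about 10374 and 10874 CPM in single Ccr2-/- cells, class II exceeds 1000 CPM in 12 WT cells and in 1 Ccr2-/- cell, and Folr2 is spread over nearly all cells.

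The remaining genes that fell were spread over several functions. Apoe, a lipid carrier, was at 5568, 10792, 1475 and 3537 CPM (log2 fold change -1.79, SE 0.29, edgeR adjusted p = 0.0233), and lay at 5219, 9205, 1714 and 3217 CPM in the comparison cells. Pld4, an endolysosomal nuclease, was at 311, 413, 42.0 and 61.8 CPM, Cd83, an activation molecule, at 288, 302, 49.4 and 22.9 CPM, and Btg2, a brake on proliferation, at 655, 730, 179 and 95.6 CPM (log2 fold changes -2.84, -3.13 and -2.42). Both WT values lay above both Ccr2-/- values for each of the 4. Cd209g, a lectin gene, was at 146, 469, 16.6 and 73.6 CPM (-2.91), with reads in 3, 3, 3 and 2 members. Areg, an epidermal growth factor receptor ligand, was at 0, 1031, 0 and 16.9 CPM, and its 877 WT day 5 reads lay in the 1 member that carried the basophil genes, so that without it no WT read was left.

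Other lists held values below the test. Of 16 interferon-stimulated genes 7 were at least 2-fold lower at both days in Ccr2-/- members, against 5.86% of all genes tested. Among the 7 were Bst2, Ifi44, Ifit2, Isg15, Mx2 and Rsad2. In this list 0 genes were called, and its median was -1.83. Ifi44 was at 53.4, 162, 10.9 and 2.54 CPM, with reads in 3, 5, 2 and 1 members, and Ifit2 at 12.1, 103, 0 and 4.23 CPM, from 1 member in each pool that had any. Ccl12, a monocyte chemoattractant, was at 371, 522, 1676 and 1386 CPM (adjusted p = 0.083), but 90.6% of its Ccr2-/- day 5 reads came from 1 member. Pdpn was at 16.1, 9.41, 120 and 190 CPM (adjusted p = 0.0637), with 51.8% and 83.0% of the Ccr2-/- reads in 1 member each. Arg1 and Egr2, both genes of alternative activation, were at 144, 23.5, 38.1 and 3.39 CPM and at 75.5, 31.8, 16.6 and 9.31 CPM (adjusted p = 0.475 and 0.714). The 15 dissociation and stress genes tested had a median of -0.99, with 0 calls and 0 at least 2-fold lower at both days. The resident list was close to even, with a median of -0.31 and 0 calls. In it 1 of 20 genes (Cd36) was at least 2-fold lower at both days, against 5.86% of all genes tested.

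The last comparison was day 5 against day 3 in the same fit. Areg was the 1 gene that rose (edgeR adjusted p = 0.000127, 0.011% of genes tested); both day 3 pools held 0 reads, nearly all day 5 reads came from the single member described above, and the call was lost without the WT day 5 pool (adjusted p = 0.837, within a range of 1.223e-26 to 0.9999 over 14 alternatives). In the same test 0 genes fell (0.0%). An unadjusted p under 0.05 was found for 380 of 9061 genes, a share below 0.05, and DESeq2 called 8 higher and 4 lower. At least 2-fold higher in both genotypes were 347 genes (3.83%) and lower were 620 (6.84%). None of the following passed the test.

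Ccl8, a monocyte and eosinophil chemoattractant abundant in these cells, was at 5881 CPM at day 3 and 13927 CPM at day 5 in WT and at 4916 and 16567 CPM in Ccr2-/- (log2 fold change 1.58, SE 0.27, edgeR adjusted p = 0.17), both day 5 values above both day 3 values. Ptger4, a prostaglandin E receptor, was at 95.7, 270, 44.2 and 187 CPM, and C4b was 2.37 and 4.58 times higher at day 5 in WT and Ccr2-/-. Cp, the iron oxidase ceruloplasmin, was at 23.2, 89.4, 8.31 and 49.9 CPM, Il18, a cytokine processed by inflammasomes, at 3.02, 8.23, 21.0 and 68.6 CPM, and Cxcl16, a chemokine and scavenger receptor, at 28.2, 58.8, 40.7 and 96.5 CPM. For Il18 the WT day 3 value lay at the limit of 3 counts, so its WT fold rests on few reads. Cd209g and Ifit2, given above, were also higher at day 5 in both genotypes.

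At least 2-fold lower at day 5 in both genotypes were 3 of 16 alternative activation genes (Arg1, Mgl2 and Tgm2), with 0 called. Mgl2, a C-type lectin of alternatively activated macrophages, was at 750, 167, 517 and 158 CPM (edgeR adjusted p = 0.671), and Arg1 was 6.12 and 11.2 times lower (adjusted p = 0.817). Of the chemokine receptor and monocyte list, Fn1, which encodes fibronectin, was at 313, 75.3, 170 and 49.9 CPM (adjusted p = 0.817). Of 18 division genes 9 were at least 2-fold lower at day 5, Mcm6, a subunit of the replication helicase, at 71.5, 3.53, 72.2 and 19.5 CPM, together with Mcm5, Cdk1, Ccnb1, Aurkb, Tpx2, Top2a, Cenpe and Hmgb2. Per cell the order differed: the median member's division level was 319 CPM at day 3 and 353 CPM at day 5 in WT and 536 and 667 CPM in Ccr2-/-, and the 2 highest cells held 68.0% of the reads at Ccr2-/- day 3. Of 13 class II presentation genes 5 were lower by that measure, H2-Aa at 1603, 751, 512 and 11.8 CPM. Without the 1 member rich in class II, H2-Aa was at 15.9 CPM at Ccr2-/- day 3. The sum of H2-Aa, H2-Ab1, H2-Eb1 and Cd74 was then 85.8 CPM at day 3 against 101 CPM at day 5. The median member's level of this sum was 162 CPM at day 3 and 243 CPM at day 5 in WT. In Ccr2-/- it was 44.3 and 72.9 CPM, so a fall was not seen per cell in either genotype. Median depth per member differed less between days within a genotype than between genotypes.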

How the data were processed

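Ear skin cells of the 4 hashtagged pools were profiled by TAS-Seq on BD Rhapsody. The deposited matrix holds read counts per gene and barcode (35208 genes, 8953 barcodes); the authors used cutadapt for trimming and Bowtie2 for alignment to GRCm38.p6 RNA sequences, and retained the barcodes past the knee-plot inflection. A background correction is described, but the deposited counts keep values of 1 (22.1% of those above 0) and Col1a1 reads in 92.3% of barcodes. The hashtag counts, deposited as reads per barcode, included 8696 of the 8953 matrix barcodes; 9 other hashtag columns were not used.

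A barcode was given to the pool whose hashtag, as a share of its column total, was at least 3 times the next. Reads were summed per pool and subset and tested with edgeR 4.0.16 (TMM, filterByExpr, quasi-likelihood, in R 4.3.3) and, as an alternative, DESeq2 1.42.0. A call is an adjusted p under 0.05. Counts of genes at an unadjusted p under 0.05 are no excess unless their share of the genes tested is above 0.05. Each pool is 1 genotype at 1 day, with no replicate pool. Between subsets, p-values measure how the paired difference varied over the 4 pools. For genotype and day, the 1 residual degree of freedom is the departure from additive effects. Those p-values therefore measure no spread between like pools or between mice. CPM are reads per 1000000 of the pool's sum, with exact Poisson intervals; shares have Clopper-Pearson intervals (scipy 1.17.1). With no reads, the limit is 3 counts. Fold changes in text are ratios of CPM, log2 values are from the fits. Tests were tried on simulated data. The members, the comparison subset and the gene lists were chosen with earlier results of these data known. Named genes were the markers, Ccr2, up to 10 called genes in each direction, the most read called members of each list and, for genotype and day, up to 10 list members in each direction with at least 100 reads and a 2-fold difference in both pairs of pools; genes named otherwise are marked or follow whole lists, and some genes are not reported here. Gene positions are from RefSeq on GRCm38.p6. Alternatives changed the hashtag ratio, the Lyve1 limit, depth, thinning, the comparison subset, scaling, filter, tool, blocking and the pools used. Members without a hashtag entered no comparison of pools.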

Additional observations from a re-analysis of the deposited data

How the results depend on the processing

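The genotype difference in the share of assigned cells (-0.682 percentage points) kept its direction in 8 of 9 alternatives and turned to +3.57 with the macrophage gate as denominator. The 5 genes called between subsets became 4 without the member rich in Ccl21a and 5 with Lyve1 at 100 CPM or more (1 higher, 4 lower, with Sulf2, Hal and Fabp5 no longer called at adjusted p = 0.149, 0.0552 and 0.623), 3 with a hashtag ratio of 10, 2 with Lyve1 at 500 CPM or more, 2 in barcodes of 100000 or fewer reads, 2 without scaling beyond library size, 11 with cells thinned to 10000 reads, 102 without a filter (26 higher, 76 lower), 93 with DESeq2, 188 without the C1q limit, and 0 without the pool block (489 genes at an unadjusted p under 0.05, edgeR); leaving out 1 pool in turn gave 0 to 3 (3 without WT day 3, 1 without WT day 5, 0 without either Ccr2-/- pool). The 12 genes called between genotypes became 7 with Lyve1 at 500 CPM or more, 6 in barcodes of 100000 or fewer reads, 82 without a filter, 62 with DESeq2, and 0 with Lyve1 at 100 CPM or more, in barcodes of 10000 or more reads, after thinning, without the member rich in Ccl21a, without scaling or without a day term (243 to 747 genes at an unadjusted p under 0.05). Leaving out 1 pool in turn, with no day term, gave 0 to 10 calls (10 without WT day 3, 1 without WT day 5, 6 without Ccr2-/- day 3, 0 without Ccr2-/- day 5). The 1 gene called between days became 0 with a hashtag ratio of 10, with Lyve1 at 100 CPM or more, in barcodes of 100000 or fewer reads, after thinning or without a genotype term, 17 without a filter and 12 with DESeq2; leaving out 1 pool in turn, with no genotype term, gave 3 to 11 (11 without WT day 3, 7 without WT day 5, 4 without Ccr2-/- day 3, 3 without Ccr2-/- day 5). Apart from Areg between genotypes, whose log2 fold change ranged from -12.51 to 6.72 with 1 pool left out (positive without WT day 5; fitted against pools with 0 reads and so no bound), the called genes kept their direction in every alternative that gave a value. The cause of these changes was not tested. The median log2 difference of all genes moved from -0.12 to -0.16 between subsets when TMM scaling was left out. Thinning, the fits without the Ccl21a member, hashtag totals without the top barcode, and the genotype and day fits without a pool were alternatives chosen after seeing the data. The subset comparison was paired by pool. Between genotypes and days, no paired analysis was possible because the labels give no replicate numbers. With 9 to 21 members per pool, genes carried by few cells are set by single cells.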

Other observations

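Chemokines abundant in Lyve1-high macrophages differed between subsets and pools without passing the test. Ccl7 and Ccl2, both monocyte chemoattractants, were at 1873, 958, 4131 and 1066 CPM and at 1706, 1064, 3425 and 958 CPM in members, with the highest value of each in the Ccr2-/- day 3 pool. In C1q-high Lyve1-low macrophages Ccl7 was at 1922, 740, 8722 and 4302 CPM and Ccl2 at 1546, 906, 8106 and 4360 CPM, so both Ccr2-/- pools were above both WT pools there. Selenop, a selenium carrier secreted by resident macrophages, was at 8019, 13713, 4635 and 11820 CPM in members, 1.71 and 2.55 times higher at day 5 in WT and Ccr2-/- (edgeR adjusted p = 0.671).

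Retnla, a secreted protein of alternative activation, was at 5308, 1365, 1942 and 1300 CPM in members and came from 12 of 19, 7 of 16, 14 of 21 and 3 of 9 of them. In C1q-high Lyve1-low macrophages it was at 5421, 2916, 643 and 505 CPM. These genes were chosen after their values were seen.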
